A study of Mus musculus with 6 samples.

Results

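The genes described here build the outer segment of the photoreceptor and the matrix around it. They are Prph2 and Rom1 of the disc rim, Cdhr1 and Prom1 of newly formed discs, Rp1, Rp1l1, Fscn2 and Pcare of the cytoskeleton, and Impg1 and Impg2 of the interphotoreceptor matrix. These 10 symbols were chosen by function, and 9 of them have a row under that symbol among the 24346 genes of the tables. No row carries the symbol Pcare, and the RefSeq table pairs it with no single row under an older symbol. Pcare, a ciliary protein that acts with actin in the initiation of discs, was therefore not analysed here. A row named BC027072, which may be an older symbol of Pcare, was not used. Whether that row holds the values of Pcare was not settled.

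The libraries were made from mRNA of whole mouse retinas at postnatal day 12. All mice carried Nrl-/-, a null state for the factor needed for rods to form, so the retina holds mainly cone-like photoreceptors and is a model of these cells, not of a normal rod and cone mosaic. The 3 control libraries carried Panky+/- and Panky-like+/-, so the controls had already lost 1 copy of each gene, and the 3 triple-deficient libraries were labelled Panky-/- and Panky-like-/-. The design text speaks of 3 littermate pairs, but the labels do not say which libraries form a pair or whether each library is 1 animal, so the p-values cover the spread between these samples only. Values are FPKM (fragments per kilobase, corrected for library size) as deposited, which is per length and allows levels of different genes to be compared.

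The outer segment is a modified cilium filled with a stack of membrane discs, which in cones remain continuous with the plasma membrane along one side. New discs form at the base of the segment, where actin pushes out the plasma membrane. Their edges are then held in a tight curve by the tetraspanins peripherin-2 and Rom1. The matrix between photoreceptors and pigment epithelium contains proteoglycans that bind hyaluronan. Panky is Ankrd33, a photoreceptor ankyrin repeat protein known to repress transcription by CRX, the homeodomain factor that drives many photoreceptor genes. Panky-like is taken here to be Ankrd33b, which the labels do not state.

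CRX and its relatives bind sites with the core letters TAATC, so promoters were searched for TAATC and for its reverse GATTA. RefSeq promoter windows of 300 bases (250 before to 50 after a listed start, build GRCm38.p6) were at hand for 8 of the 10 symbols, with 2 starts for Prom1. The letters were present in 5 of these 9 windows, those of Impg1, Impg2, Pcare, Prph2 and 1 of the Prom1 starts, against 22.0% of all 32851 windows. The longer form TAATCC or GGATTA, whose matches are among those of the shorter one, was present in 1 of the 9, that of Pcare, against 7.06% of all windows. A match is a description of these letters and not a binding site. The 250 bases before the start are shown for the disc rim pair and for both matrix proteoglycans, 5′ to 3′ on the strand of the gene, with TAATC or GATTA in capitals.
Prph2: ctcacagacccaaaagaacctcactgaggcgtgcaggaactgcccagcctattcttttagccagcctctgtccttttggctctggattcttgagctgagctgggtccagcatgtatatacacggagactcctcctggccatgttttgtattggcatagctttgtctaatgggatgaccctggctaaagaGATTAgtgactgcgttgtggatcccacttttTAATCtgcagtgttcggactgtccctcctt
Rom1: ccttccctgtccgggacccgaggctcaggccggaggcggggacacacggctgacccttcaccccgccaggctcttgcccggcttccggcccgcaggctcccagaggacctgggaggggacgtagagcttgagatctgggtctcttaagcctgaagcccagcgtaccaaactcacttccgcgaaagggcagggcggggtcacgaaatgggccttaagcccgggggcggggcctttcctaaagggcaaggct
Impg1: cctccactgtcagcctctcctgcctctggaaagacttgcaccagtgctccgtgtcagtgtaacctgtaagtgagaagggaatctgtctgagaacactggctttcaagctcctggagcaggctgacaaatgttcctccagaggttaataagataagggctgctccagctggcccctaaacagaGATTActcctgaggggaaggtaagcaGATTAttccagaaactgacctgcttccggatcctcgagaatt
Impg2: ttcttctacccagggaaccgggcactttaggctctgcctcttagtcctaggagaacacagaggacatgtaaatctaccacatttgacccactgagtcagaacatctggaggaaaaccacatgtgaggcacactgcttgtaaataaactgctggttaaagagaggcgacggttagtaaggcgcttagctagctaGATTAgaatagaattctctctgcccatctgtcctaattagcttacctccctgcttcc
These stretches lie at chr17:46910228-46910477 on the forward strand (Prph2), chr19:8929357-8929606 on the reverse strand (Rom1), chr9:80465439-80465688 on the reverse strand (Impg1) and chr16:56204063-56204312 on the forward strand (Impg2). In Prph2, 56 bases lay between the GATTA match and the gene start, and 25 between the TAATC match and the start. Impg1 held 2 GATTA matches, 63 and 37 bases from the listed start of its window, and Impg2 held 1 at 52 bases from its own. The listed starts of Impg1, Impg2, Fscn2 and Prom1 lie inside the gene coordinates given below. The Impg2 stretch therefore lies within the gene, as do most of the Impg1 stretch and both of its matches. The Rom1 stretch held neither form.

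Sums of FPKM ran from 385962 to 396697 per library. Read totals are not in the tables. With control 1 set to 1, relative depth estimated from the discrete steps among low values was least in triple-deficient 3, at 0.806, and greatest in triple-deficient 1, at 1.20. Cone transcripts were abundant in both groups. Opn1sw, the short-wavelength opsin, was at 1545 ± 35.9 and 1475 ± 81.5 FPKM (SD, n = 3) in control and triple-deficient libraries, and Gnat2, which encodes the alpha subunit of cone transducin, at 562 ± 8.46 and 561 ± 26.5 FPKM. Of 10 tested cone markers none passed the adjusted threshold. Of these 10, 1 lay wholly below the controls, Pde6h at 906 and 818 FPKM, against 5.64% of all genes, and none wholly above. Crx and Rcvrn, found in both photoreceptor classes, stood near 425 and 489 FPKM in controls. Gnat1, which encodes the alpha subunit of rod transducin, had a mean of 0.405 FPKM over controls and of 0.304 FPKM over triple-deficient libraries. Other rod-linked transcripts were not low in this retina, Pde6g being at 743 and 732 FPKM and Gngt1 at 293 and 324 FPKM in the same order. Of 8 tested rod markers none passed the adjusted threshold, and 3 (Pde6a, Nr2e3 and Slc24a1) lay wholly above the controls, against 4.86% of all genes. The summed level of 10 rod markers was 1184 to 1252 FPKM in controls and 1168 to 1292 FPKM in triple-deficient libraries. Ankrd33b was at 33.8 and 1.502 FPKM in the respective groups and Ankrd33 at 106 and 55.6 FPKM, so that 0.522 times the control level of Ankrd33 was still present in libraries labelled Panky-/-. Nrl was at 44.2 and 52.5 FPKM in libraries labelled Nrl-/-. Each value covers the whole gene, so transcripts that lack the deleted part would still be counted. Whether this accounts for the levels of Ankrd33 and Nrl was not tested. In bulk tissue, fewer cells of a type and less RNA per cell cannot be told apart.

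The comparison of genotypes asks whether the labelled Panky-/- and Panky-like-/- genotype goes with altered transcripts for the structure that cones use to hold their photopigment. None of the 9 genes passed the test (limma on log2(FPKM + 1), adjusted over all 14325 genes tested). Over all genes 4 passed, which is 0.0279%, and the targeted genes Ankrd33b and Ankrd33 were among these 4 (limma adjusted p = 4.56e-07 and 0.00274). All 9 lay far above the filter of a mean of 0.5 FPKM. The log2 changes of 8 of the 9 were within 0.1 of 0. The largest of these 8 was 0.082, for Prom1, and 31.2% of all genes had a change at least as large. For 8 of the 9 the 95% interval stayed within 1.5-fold in either direction, as it did for 96.8% of all genes. The median log2 change of the 9 was 0.038, against 0.003 over all genes. Of the 9 changes 5 were above 0, against 51.8% of all genes. At an unadjusted p below 0.05 there was 1 of the 9, Impg1, against 5.09% of all genes. The triple-deficient libraries lay wholly above the controls for 2 of the 9, Impg1 and Prom1, and wholly below for none, against 4.86% and 5.64% of all genes.

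**Figure D1:**
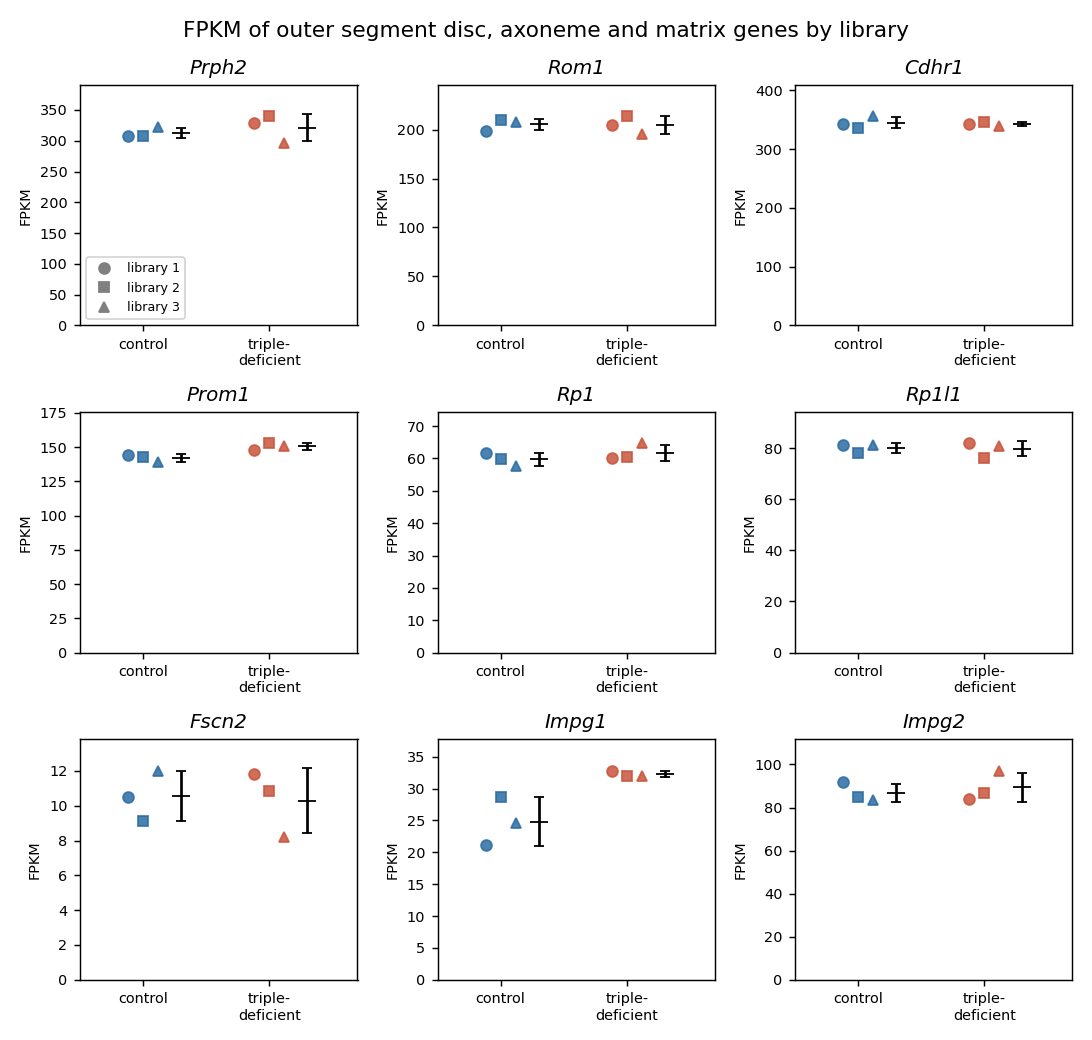
FPKM of 9 outer segment and matrix genes in each of 3 control (blue) and 3 triple-deficient (red) libraries; marker shapes are library numbers, and black marks give mean ± SD (n = 3). The groups overlap for 7 genes, and the triple-deficient libraries lie above the controls for Impg1 and, by a small margin, for Prom1.

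The disc rim genes ranked high among transcripts of the retina, Prph2 at 125 and Rom1 at 264 of 24346 genes by mean level. Prph2 encodes peripherin-2, the tetraspanin that shapes the rim of rod and cone discs. It lies on chromosome 17 (46910478 to 46924933, GRCm38). Its level was 308, 307 and 322 FPKM in control libraries 1, 2 and 3 and 328, 340 and 297 FPKM in triple-deficient libraries 1, 2 and 3. The highest and the lowest of the 6 values were both triple-deficient, so the groups overlapped. The log2 change was 0.038 (SE 0.061, 95% interval -0.10 to 0.18, limma adjusted p = 0.966), which leaves room for 0.932 to 1.13 times the control level.

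Rom1 encodes the paralog that joins peripherin-2 in the rim complexes, and lies on chromosome 19 (8927382 to 8929356). It was at 198, 210 and 207 FPKM in the controls and at 205, 214 and 195 FPKM in the triple-deficient libraries. The groups overlapped fully, and as with Prph2, triple-deficient 2 was highest and triple-deficient 3 lowest. The log2 change was -0.0051 (SE 0.051, 95% interval -0.12 to 0.11, limma adjusted p = 0.997). Within a library, the FPKM of Prph2 was 1.55, 1.46 and 1.56 times that of Rom1 in the controls and 1.60, 1.59 and 1.52 times in the triple-deficient libraries. The ratio therefore varied little, and the groups overlapped (two-sided exact permutation test, p = 0.40, adjusted p = 0.40 over 3 ratios). With 3 against 3 libraries that test cannot go below 0.10.

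Cdhr1, a cadherin of the photoreceptor found at the edges of newly forming discs, was the most abundant of the 9. It lies on chromosome 14 (37077849 to 37098347). It stood at 343, 337 and 356 FPKM in the controls and at 343, 346 and 339 FPKM in the triple-deficient libraries. The triple-deficient values fell inside the control range, and their coefficient of variation was 0.961%. The log2 change was -0.0098 (SE 0.046, 95% interval -0.12 to 0.096, limma adjusted p = 0.990). Of 303 genes with a mean within 2-fold of that of Cdhr1, 82.8% had a change at least as large.

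Prom1 encodes prominin-1, a membrane protein of protrusions that also localizes to growing discs. It lies on chromosome 5 (43993621 to 44102047). Its level was 144, 143 and 139 FPKM in the controls and 148, 153 and 151 FPKM in the triple-deficient libraries. Each triple-deficient value was above each control value, with a gap of a few FPKM. The triple-deficient mean was 1.06 times the control mean, a log2 change of 0.082 (SE 0.042, 95% interval -0.014 to 0.18) that did not pass (limma adjusted p = 0.943). Among 833 genes of similar level, 19.6% had a change at least as large. An antisense gene without a row in the tables, Gm16401, overlaps exons of Prom1, and whether counting used the strand is not given in the sources used here.

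**Figure D2:**
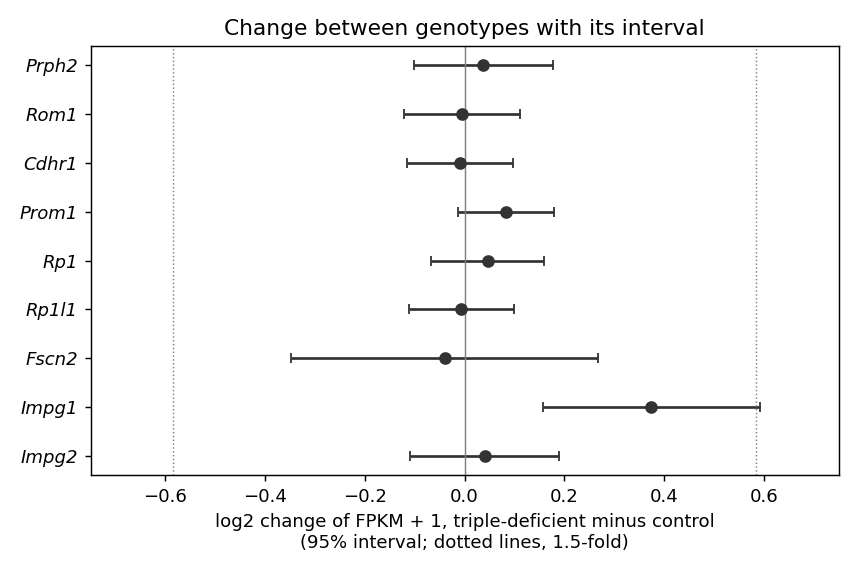
Log2 change of FPKM + 1, triple-deficient minus control, for each gene (point) with its 95% interval from limma (bar); dotted lines mark 1.5-fold. The interval of Impg1, 0.16 to 0.59, lies above 0 before adjustment, and the other 8 intervals include 0.

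No difference was detected for the axoneme and actin genes. Rp1 encodes a microtubule-binding protein with doublecortin domains that runs along the outer segment axoneme, and lies on chromosome 1 (4115673 to 4409266). It was at 61.8, 59.8 and 57.6 FPKM in the controls and at 60.1, 60.4 and 64.6 FPKM in the triple-deficient libraries. The groups overlapped, with triple-deficient 3 the highest. The log2 change was 0.046 (SE 0.049, 95% interval -0.067 to 0.16, limma adjusted p = 0.959).

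Rp1l1, its paralog in the axoneme, lies on chromosome 14 (63992431 to 64033506). It was at 81.0, 77.9 and 81.1 FPKM in the controls and 81.8, 76.3 and 81.0 FPKM in the triple-deficient libraries. Both groups spanned nearly the same range, and the log2 change was -0.0064 (SE 0.046, 95% interval -0.11 to 0.099, limma adjusted p = 0.995). Per length, Rp1 transcripts were at 0.763, 0.767 and 0.711 times the level of Rp1l1 in the controls and at 0.735, 0.792 and 0.798 times in the triple-deficient libraries. The ranges of this ratio overlapped (two-sided exact permutation test, p = 0.40, adjusted p = 0.40).

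Fscn2, the retinal fascin that bundles actin, was the least abundant of the 9. It lies on chromosome 11 (120360165 to 120368173). Its level was 10.5, 9.13 and 12.0 FPKM in the controls and 11.8, 10.9 and 8.19 FPKM in the triple-deficient libraries. The lowest value was that of triple-deficient 3, and the groups overlapped. The log2 change was -0.040 (SE 0.134, 95% interval -0.35 to 0.27, limma adjusted p = 0.984), the widest interval of the 9. Its coefficient of variation was 13.7% in controls and 18.3% in triple-deficient libraries. Of 5530 genes within 2-fold of its level, 5.35% and 3.27% varied at least as much.

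The matrix proteoglycans include the gene with the largest change of the 9. Impg1 encodes a proteoglycan that photoreceptors secrete into the interphotoreceptor matrix, where it binds hyaluronan. It lies on chromosome 9 (80312773 to 80465654). Its level was 21.1, 28.7 and 24.6 FPKM in control libraries 1, 2 and 3 and 32.8, 32.0 and 31.9 FPKM in triple-deficient libraries 1, 2 and 3. The triple-deficient libraries were nearly equal and all above the controls, which were spread widely. The mean was 1.30 times as high, with a log2 change of 0.37 (SE 0.095, 95% interval 0.16 to 0.59). The unadjusted limma p was 0.00400, the 87th smallest of 14325, and the adjusted p was 0.651, so the difference did not pass. Of 4851 genes within 2-fold of its level, 0.825% had a change at least as large.

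The spread of Impg1 was itself uneven. Its coefficient of variation was 15.2% in controls, reached by 1.67% of the genes of similar level, and 1.52% in the triple-deficient libraries, reached by 93.2%. The lowest value came from control 1. Without that library the log2 change was 0.27 (limma adjusted p = 0.998), and without control 2, the highest control, it was 0.48 (adjusted p = 0.370). Control 1 also held the highest summed level of 8 lens markers, 12.4 FPKM, against 2.43 to 3.05 FPKM in the other 5 libraries. The lens crystallins Crygd and Crygs were listed at 0 in control 2 and in all 3 triple-deficient libraries. Another crystallin, Cryaa, was at 4.61, 0.0398 and 0.129 FPKM in the controls and at 0.109, 0.0468 and 0 FPKM in the triple-deficient libraries. Of the lens fibre cytoskeleton, Bfsp1 had a mean of 0.565 FPKM over controls and of 0.770 FPKM over triple-deficient libraries. Bfsp2 went the other way, at 1.66 and 1.38 FPKM. The summed level of 10 pigment epithelium markers was 45.4 to 59.2 FPKM in controls, highest in control 1, and 33.9 to 47.1 FPKM in triple-deficient libraries, and 4 of 7 tested were wholly lower there, against 5.64% of all genes. Among them Ttr was at 0.557, Tyrp1 at 0.563 and Pmel at 0.419 times the control mean, whereas Dct was at 1.19 times, and none passed (limma adjusted p of 0.472 to 0.954 for these 4). The part of these tissues in the values of Impg1 was not tested.

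Impg2, the transmembrane proteoglycan of the same matrix, had groups that overlapped. It lies on chromosome 16 (56203839 to 56273753). It was at 91.7, 84.8 and 83.7 FPKM in the controls and at 84.1, 86.7 and 97.1 FPKM in the triple-deficient libraries. Control 1 was the highest control for Impg2 and the lowest for Impg1. The log2 change was 0.040 (SE 0.065, 95% interval -0.11 to 0.19, limma adjusted p = 0.966). Impg1 transcripts were at 0.230, 0.338 and 0.295 times the level of Impg2 in the controls and at 0.390, 0.369 and 0.329 times in the triple-deficient libraries. The ranges of the ratio overlapped, since triple-deficient 3 lay below control 2 (two-sided exact permutation test, p = 0.20, adjusted p = 0.40). The windows shown above hold the GATTA letters in both genes.

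**Figure D3:**
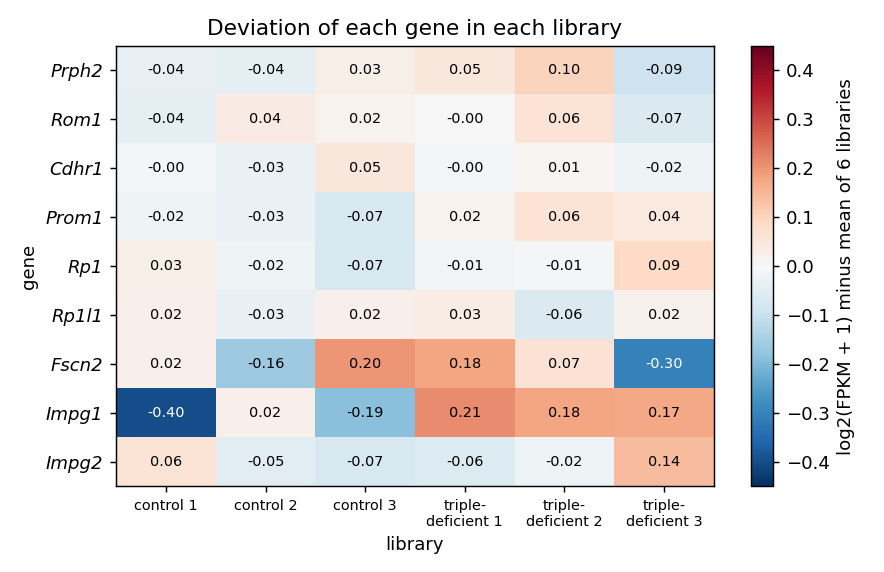
Deviation of each gene (rows) in each library (columns) from its own mean over the 6 libraries, in log2(FPKM + 1); red is above and blue below. Impg1 runs from -0.40 in control 1 to 0.21 in triple-deficient 1, and Fscn2 is lowest in triple-deficient 3 at -0.30.

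Levels were ordered alike in both groups. From highest to lowest the order was Cdhr1, Prph2, Rom1, Prom1, Impg2, Rp1l1, Rp1, Impg1 and Fscn2. In the controls the ranges of neighbours in that order did not overlap. In the triple-deficient libraries they did so for 1 pair, Cdhr1 and Prph2, where the lowest Cdhr1 value of 339 FPKM was just under the highest Prph2 value of 340 FPKM. By mean level among all genes Cdhr1 ranked 105 and Fscn2 ranked 7671. In the controls the mean of Cdhr1 was 32.7 times that of Fscn2.

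Base composition was examined because 1 library stood apart in it. Across all genes, which are not independent, the deviations of triple-deficient 3 had a Spearman correlation of -0.59 with GC content, against 0.07 to 0.30 in the other libraries. In triple-deficient 3 the deviations of Rp1, with 39.6% GC in its longest transcript, and of Impg2, with 42.4%, were 0.09 and 0.14, and those of Rom1, with 57.1%, and of Fscn2, with 59.1%, were -0.07 and -0.30. Rp1l1, with 55.2%, was at 0.02. Impg1 and Prom1, whose groups did not overlap, had 45.3% and 45.8% GC and deviations of 0.17 and 0.04. The trend was also present in the comparison of genotypes. Over all genes the log2 change had a Spearman correlation of -0.36 with GC content and of 0.20 with length. With the trends on GC content and length removed, the log2 change of Impg1 was 0.355 (limma adjusted p = 0.592), that of Prom1 was 0.061 and that of Rp1 was -0.001.

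Other genes of the outer segment, the photoreceptor cilium and the retinal matrix were read from the same fit. None of 41 tested genes of 43 listed passed the adjusted threshold, and their log2 changes ran from -0.18 to 0.12. The disc and rim partners had a median log2 change of 0.001 over 12 genes. Cngb1, the channel subunit whose gene also yields proteins that bind the disc rim in rods, was at 12.5 ± 1.22 and 13.6 ± 0.255 FPKM. Tulp1, which acts in transport to the outer segment, was at 558 ± 25.2 and 522 ± 38.5 FPKM, and Tmem30a, the partner subunit of lipid flippases, at 67.5 ± 1.14 and 71.0 ± 3.64 FPKM (SD, n = 3 each). Their limma adjusted p was 0.946 in each case. Of the 12 genes 1, Tmem30a, lay wholly above the controls in the triple-deficient libraries, against 4.86% of all genes, and none wholly below.

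The cilium and axoneme genes had a median of 0.044 over 15 genes, 12 of them above 0, against 51.8% of all genes. Agtpbp1, a carboxypeptidase that trims glutamate chains from tubulin, was at 61.8 ± 1.97 and 65.8 ± 1.13 FPKM (SD, n = 3) and did not pass (limma adjusted p = 0.943). Of the 15 genes 1, Agtpbp1, lay wholly above the controls in the triple-deficient libraries, against 4.86% of all genes, and none wholly below. Fam161a, of the connecting cilium, was at 82.9 ± 5.31 and 86.5 ± 2.48 FPKM, and Rpgr, a regulator at the same place, at 31.5 ± 4.69 and 34.3 ± 4.38 FPKM. Neither passed.

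The retinal matrix genes had a median of -0.002 over 14 tested genes of 16, with 7 above 0. Hapln3, a link protein of hyaluronan, was at 2.26 ± 0.0809 and 1.98 ± 0.147 FPKM, and Cd44, a hyaluronan receptor, at 2.29 ± 0.220 and 2.55 ± 0.154 FPKM (SD, n = 3 each). Neither passed the adjusted threshold. Acan and Has2 lay below the filter. Of the 14 tested genes 1 lay wholly above the controls and 1, Hapln3, wholly below, against 4.86% and 5.64% of all genes. No gene of these lists passed in any of the alternative fits.

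**Figure D4:**
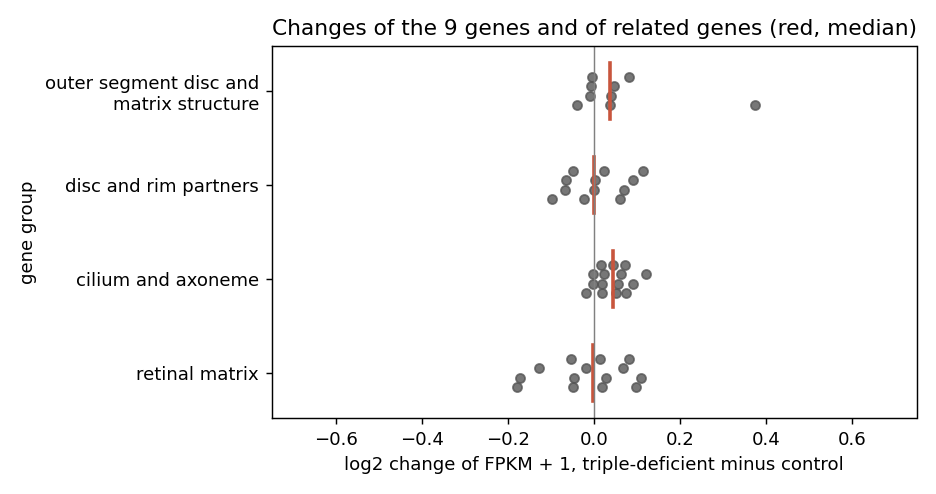
Log2 change of FPKM + 1, triple-deficient minus control, of the 9 genes and of 3 groups of related genes; each point is 1 gene and red lines are medians. Impg1, at 0.37, lies outside the range of the related genes, -0.18 to 0.12.

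Genes beside these on the chromosome were also examined. None of the 10 symbols lies on chromosome 15, which carries Ankrd33 and Ankrd33b. The nearest tested protein-coding genes on either side, 18 in all, held none past the adjusted threshold, and their log2 changes ran from -0.20 to 0.15. At an unadjusted limma p below 0.05 there were 2 of the 18, against 5.09% of all genes. These were Tbcc beside Prph2, with a log2 change of -0.195, and Senp7 beside Impg2, with 0.147. Myo6, an unconventional myosin gene 1.04 kb from Impg1, was at 23.6 ± 1.27 and 25.2 ± 1.84 FPKM (SD, n = 3), with a change of 0.090 on the log2 scale (limma adjusted p = 0.947). The nearest tested gene on the other side of Impg1 was Htr1b, a serotonin receptor gene 1160 kb away, at 3.86 ± 0.881 and 3.44 ± 0.715 FPKM.

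The genes whose profiles over the 6 libraries lay nearest to the pair with the smallest p were found among 10186 others with a mean of at least 5 FPKM, by the root mean square difference of centred log2(FPKM + 1) values. Nearest to Impg1 was Myocd, a co-activator of transcription known from muscle, at a difference of 0.0503. It stood at 4.39, 6.05 and 4.84 FPKM in the controls and at 6.50, 6.29 and 6.58 FPKM in the triple-deficient libraries, and did not pass (limma adjusted p = 0.861). Gm6644 and Aldh7a1 followed at 0.0706 and 0.0794. Nearest to Prom1 were Ttc5, Gart and Synrg, at 0.0119 to 0.0149.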

How the data were processed

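RNA was extracted from freshly isolated retinas with TRIzol, and a stranded TruSeq kit that selects mRNA was used for the libraries, per the labels' protocols. The authors deposited 1 table of FPKM values per library. TopHat2 2.1.1, Bowtie2 2.3.5.1, Cufflinks 2.2.1, Cuffdiff and the build mm10 are named, without roles or order, in the submitters' processing notes. Not given in the sources used here are the annotation, how multiply mapped reads were treated and how libraries were scaled.

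FPKM values were used as deposited. Genes averaging 0.5 FPKM or more were fitted with limma 3.58.1 in R 4.3.3 on log2(FPKM + 1) with a mean-variance trend, two-sided, with Benjamini-Hochberg adjustment over all genes and a threshold of 0.05. The fit had been tested on simulated data. Fold changes on this scale understate changes of low genes. For GC content and length the longest transcript of a gene in GENCODE M21 was used, known for 99.3% of genes tested, and coordinates from RefSeq for GRCm38.p6, the mm10 build. Prcd and Cfap410 were read from rows under older symbols that RefSeq pairs with them. Relative depth was taken from ratios of values below 0.3 FPKM that match ratios of whole numbers up to 6 within 0.005 (log2), which 61.1% to 64.1% did. No counts were rebuilt.

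The genes and lists were chosen with earlier results of these data known. Named are all 9 genes with a row, up to 3 genes with the smallest p in each related list, the 3 nearest profiles to the 2 genes with the smallest p, the targeted genes and tissue checks. Some genes that this rule names are not reported here. Myo6, Htr1b, Tbcc, Senp7, Pde6h, Pde6a, Pde6g, Gngt1, Nr2e3, Slc24a1, Ttr, Tyrp1, Pmel, Dct, Cryaa, Crygd, Crygs, Bfsp1, Bfsp2, Acan and Has2 were chosen after their values were seen. Alternatives were other pseudocounts, filters, shrinkage, scalings, weights, a replicate term, GC and length trend removal, and leaving out each library.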

Additional observations from a re-analysis of the deposited data

How the results depend on the processing

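None of the 9 genes and none of the 41 related genes passed in any of 18 alternatives. The smallest adjusted p of the 9 was 0.348, for Impg1 with array weights. The log2 change of Impg1 stayed between 0.269 and 0.480 and that of Prom1 between 0.061 and 0.104. The count over all genes, 4 in the reported fit, was 2 with no filter and 2 with robust shrinkage, and ran from 3 to 11 when 1 library was left out (8 without control 3, 11 without triple-deficient 1 and 11 without triple-deficient 3). The cause of these shifts was not tested. Of 162 values of the 9 genes, 22 had the opposite sign, the largest of size 0.102. With the GC and length trends removed, with or without the replicate block, these were 0.041 for Rom1, -0.001 for Rp1 and 0.036 for Fscn2. With quantile normalization Rom1 was at 0.034. With array weights Rom1 was at 0.030, Cdhr1 at 0.007, Fscn2 at 0.079 and Impg2 at -0.004. With 1 library left out the ranges were -0.003 to 0.095 for Prph2, -0.036 to 0.027 for Rom1, -0.025 to 0.024 for Rp1l1, -0.027 to 0.012 for Cdhr1, -0.138 to 0.102 for Fscn2 and -0.021 to 0.081 for Impg2. The log2 difference of the Impg1 to Impg2 ratio then ran from 0.196 to 0.473, that of Prph2 to Rom1 from 0.014 to 0.068 and that of Rp1 to Rp1l1 from 0.018 to 0.091. The library numbers were not taken as pairs, because the labels do not say that they mark pairs. Deviations of same-numbered libraries correlated at 0, 0.12 and 0.10. Those deviations were centred within each group of 3 libraries, so the correlations cannot show whether the numbers mark pairs. The replicate block gave 4 genes, and 3 with the GC and length trends removed as well. Not every library correlated best with its own number. The median change over all genes stayed between 0.002 and 0.010. Read totals are unknown, so precision rests on 3 libraries per group.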
